A study of Mus musculus with 2 samples.

Results

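Mitosis genes encode the proteins that carry a cell into division, attach and separate its chromosomes and split its cytoplasm. The 44 protein-coding genes described here were chosen by name for these roles, out of 21883 protein-coding genes of the RefSeq annotation, and lie on 15 chromosomes. For each, islands of Hdac1 and Hdac2 were read at the ends of the gene, in its body and within 100 kb. Hdac1 and Hdac2 are class I histone deacetylases, enzymes that take acetyl groups off histones and work in corepressor complexes such as Sin3, NuRD and CoREST.

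ChIP-seq, which maps where a protein sits on DNA, was applied to nephron progenitor cells. These cells of the fetal kidney form nephrons and were taken from wild-type mouse embryos at E16.5 and cultured before crosslinking. There was 1 library for Hdac1 (0.5 µg of antibody) and 1 for Hdac2 (1 µg), so antibody and amount differ together and cannot be told apart. An island is a stretch of mm10 with more reads than background, and the authors give each a p-value or q-value, here called its value, which ranks islands within a list. The lists held 30182 Hdac1 and 20307 Hdac2 islands, with median widths of 2.0 kb and 2.8 kb. The read depth is unknown and neither antibody has a replicate, so no test was possible and every difference compares these 2 libraries. Islands do not measure expression. The label was set beside marker genes, where the shares of all protein-coding genes were 60.7% for Hdac1 at a gene end and 31.7% for Hdac2. Hdac1 was at 8 of 8 progenitor, 3 of 3 stromal, 2 of 3 ureteric bud and 1 of 4 endothelial and blood markers, and Hdac2 at 6, 3, 1 and 0 of them. By these counts progenitor markers did not stand above stromal ones.

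As background, mitosis genes are switched on late in the cell cycle and kept silent in resting and early-cycle cells. The DREAM complex, which holds p130 or p107 with E2F and the MuvB core, represses many of them through a promoter element called the cell cycle genes homology region (CHR). B-Myb and FoxM1 then join MuvB there, and NF-Y activates the same promoters at CCAAT boxes. Class I deacetylases have been linked to repression by pocket proteins of the p130 family.

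All 44 mitosis genes had an Hdac1 island within 1 kb of a gene end (100%), where 60.7% of all protein-coding genes did. Hdac2 was present at an end of 21 of the 44 (47.7%), where it was present at 31.7% of all genes and at 50.6% of genes with Hdac1. All 21 had both proteins, as did 30.7% of all genes. The Hdac1 islands had low values but ordinary widths. Their median value was 8.83e-147, against 6.29e-51 over the 13283 genes with Hdac1, and their median width was 2.2 kb (interquartile range 2.0 to 2.65 kb), against 2.4 kb (1.6 to 3.4 kb). Genes that had Hdac2 included Plk1, Aurka, Aurkb, Foxm1, Mki67 and Cdc20, and genes that had Hdac1 alone included Cdk1, Ccnb1, Ccnb2, Top2a, Birc5 and Bub1. The named Hdac2 islands differed in strength, beside a median value of 2.1e-08 over the 6942 genes with Hdac2. Values were lower at Foxm1 (2.45e-13), Plk1 (1.15e-08) and Aurkb (1.22e-08). They were higher, so the islands were weaker, at Cdc20 (1.19e-06), Mki67 (1.78e-06) and Aurka (0.00306). Whether a gene is on in these cells was not measured.

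The promoters of these genes carried the motif letters for which mitosis genes are known. RefSeq promoter windows on GRCm38.p6, from 250 bases before to 50 after the start, were found for 35 of the 44 genes. They were searched on both strands for 3 motifs. The CHR search took the letters TTTGAA and its variant form TTCGAA. The next motif was the box CCAAT itself. The E2F search took 3 forms, written TTCCCGC, then the form TTCGCGC, then the form TTGGCGC. A reversed CCAAT box can share bases with the last E2F form, so these searches can overlap. CHR letters were in 26 of 35 windows (74.3%), beside 18.2% of 17491 protein-coding genes with a window. CCAAT was in 26 (74.3%, beside 39.2%), and both were in 22 (62.9%, beside 7.47%). Among 2147 genes whose Hdac1 islands were in the strongest 2 deciles by value, 14.7% held CHR letters and 6.94% held both. The median GC content of their windows was 65.3%, beside 58% for the members and 56.3% over all genes with a window. The shares of letters were not adjusted for GC content. E2F letters were in 7 windows (20%, beside 10.5% of all genes and 19.8% of those 2147 genes). A match is a run of letters and not a measured site.

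The promoter windows below are shown because they set genes with both deacetylases beside genes with Hdac1 alone. Each runs from 150 bases before the start to 30 bases into the gene, with CHR, CCAAT and E2F letters in capitals. The motif counts come from the longer windows, so some matches lie outside the stretches shown. In the longer windows Aurka and Plk1 each had 1 CHR match, and Mki67, Cdca5, Cdk1 and Ccnb2 each had 2. Aurka (chr2:172370541-172370720, minus strand), Plk1 (chr7:122159285-122159464, plus strand) and Mki67 (chr7:135716350-135716529, minus strand) had both proteins. Cdca5 (chr19:6084947-6085126, plus strand), Cdk1 (chr10:69352883-69353062, minus strand) and Ccnb2 (chr9:70421525-70421704, minus strand) had Hdac1 alone. Aurka and Cdca5 had the lowest Hdac1 value of their kind among genes with a window, and the other 4 were chosen after their values were seen. The Hdac2 islands of Aurka (0.00306) and Mki67 (1.78e-06) were weaker by value than that of Plk1 (1.15e-08).
Aurka: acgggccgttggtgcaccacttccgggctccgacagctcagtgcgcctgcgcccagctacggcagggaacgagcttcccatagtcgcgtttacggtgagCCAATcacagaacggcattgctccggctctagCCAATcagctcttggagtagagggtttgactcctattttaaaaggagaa
Plk1: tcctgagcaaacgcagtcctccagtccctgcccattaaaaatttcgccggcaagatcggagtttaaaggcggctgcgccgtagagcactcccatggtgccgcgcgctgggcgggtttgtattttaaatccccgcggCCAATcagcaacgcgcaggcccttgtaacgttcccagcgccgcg
Mki67: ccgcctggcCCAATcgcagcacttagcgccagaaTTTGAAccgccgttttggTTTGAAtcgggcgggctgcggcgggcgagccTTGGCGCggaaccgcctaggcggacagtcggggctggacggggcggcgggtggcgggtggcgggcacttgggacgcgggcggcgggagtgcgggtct
Cdca5: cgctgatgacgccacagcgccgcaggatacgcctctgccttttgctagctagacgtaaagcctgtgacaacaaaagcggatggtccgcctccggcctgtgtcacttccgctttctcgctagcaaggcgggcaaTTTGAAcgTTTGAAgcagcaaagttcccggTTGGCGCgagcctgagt
Cdk1: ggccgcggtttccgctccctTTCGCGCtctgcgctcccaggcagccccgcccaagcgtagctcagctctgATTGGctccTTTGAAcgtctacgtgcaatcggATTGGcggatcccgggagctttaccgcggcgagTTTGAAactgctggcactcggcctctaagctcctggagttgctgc
Ccnb2: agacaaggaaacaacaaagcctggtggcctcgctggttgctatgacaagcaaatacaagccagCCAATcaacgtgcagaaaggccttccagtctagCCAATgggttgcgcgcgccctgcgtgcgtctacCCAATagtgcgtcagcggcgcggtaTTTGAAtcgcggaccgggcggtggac
In Ccnb2 the 3 CCAAT boxes began 87, 54 and 21 bases before the start, and CHR letters followed at base 5 of the gene. Cdk1 had reversed CCAAT boxes beginning at 80 and 48 bases before the start and CHR letters at 71 and 15. Cdca5 had CHR letters at 17 and 9 bases before the start and no CCAAT box. Mki67 had CHR letters at 116 and 98. The letters were found at genes with and without Hdac2: CHR was in 11 of 16 windows with Hdac2 and 15 of 19 without, and CCAAT in 12 of 16 and 14 of 19. The median GC content was 58.8% and 57%, and the median number of CpG per 100 bases was 8.17 and 7.

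The counts of Hdac2 by role, here and below, stand beside a share of 50.6% over all genes with Hdac1. Each role held only 4 to 8 genes, and differences between roles were not tested. Genes for entry into mitosis all had Hdac1, and 4 of 8 had Hdac2. Ccna2 encodes cyclin A, which partners Cdk1 and Cdk2. It had 2.4 kb of Hdac1 (6.47e-206) and, wholly inside it, 1.0 kb of Hdac2 (5.74e-08). The B cyclins, which activate Cdk1 for division, had Hdac1 alone: the Ccnb1 island measured 2.2 kb (2.63e-169) and the Ccnb2 island 1.4 kb (6.36e-151). At Cdk1, the kinase they activate, the Hdac1 island of 4.0 kb (2.08e-178) reached 3.31 kb into the gene, and the nearest Hdac2 island lay 39.5 kb away. Among the cyclin and kinase genes, Ccna2 thus had Hdac2 and the others did not. Cdc25 phosphatases take the inhibitory phosphates off Cdk1. Cdc25c had Hdac1 of 3.0 kb (9.1e-216) and Hdac2 of 2.6 kb (2.43e-07), and Cdc25a had Hdac1 of 2.8 kb (2.95e-115) and Hdac2 of 3.2 kb (0.000179). Cdc25b stood apart with the highest Hdac1 value of the 44 genes, 1.25e-15 for an island of 2.0 kb, and no Hdac2. Foxm1, the factor that drives G2 and M phase transcription, had islands of 2.2 kb for each protein, with values of 6.74e-254 and 2.45e-13. The Foxm1 islands overlapped by 1.6 kb.

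Of the 6 genes for mitotic kinases and spindle assembly, 4 had both proteins. Aurka, the centrosomal Aurora kinase, had one of the lowest Hdac1 values (2.28e-240, 2.4 kb, rank 221 of 13283 genes) and one of the highest Hdac2 values (0.00306, 3.4 kb, rank 6771 of 6942 genes). Kif11, the motor that pushes spindle poles apart, had 3.4 kb of Hdac1 (6.54e-158) and 2.6 kb of Hdac2 (0.00849), the highest Hdac2 value of the members. Both genes thus paired a strong Hdac1 island with an Hdac2 island in the weakest decile. Plk4, which starts centriole duplication, had the lowest Hdac2 value of the members (2.16e-17) in an island of only 1.0 kb, within an Hdac1 island of 2.4 kb (2.58e-145). At Plk1, the main Polo kinase of mitosis, the islands measured 2.2 kb (2.62e-167) and 2.0 kb (1.15e-08). Nek2, a centrosomal kinase, and Tpx2, the activator of Aurora A, had Hdac1 alone, of 1.8 kb (1.29e-134) and 2.2 kb (1.68e-86).

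Kinetochore and centromere genes had Hdac2 at 2 of 8, beside 50.6% of all genes with Hdac1. The Ndc80 complex, which grips spindle microtubules, has 4 subunits, and they did not share a pattern. Nuf2 had Hdac1 of 2.2 kb (1.14e-165) and Hdac2 of 1.6 kb (2.24e-06), whereas Ndc80, Spc24 and Spc25 had Hdac1 alone. The Ndc80 island measured 2.2 kb (3.97e-153) and the stronger Spc24 island 2.8 kb (9.44e-107). Spc25 was among the 4 members with the weakest Hdac1 islands (2.2 kb, 1.6e-37). Cenpe, the kinetochore motor, had Hdac1 of 2.8 kb (6.08e-104) and Hdac2 of 1.6 kb (4.08e-07). Cenpf, a large kinetochore protein, had 4.0 kb of Hdac1 (6.93e-153) and no Hdac2. Cenpa, the histone H3 variant of centromeres, had 2.2 kb (1.21e-90), and Kif2c, a microtubule-depolymerising kinesin, had 1.8 kb (9.27e-167), each with Hdac1 alone.

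The chromosomal passenger complex joins the kinase Aurora B to Incenp, survivin and borealin. Of the 4 genes, the kinase gene Aurkb had Hdac2, in 1.4 kb (1.22e-08) beside 2.0 kb of Hdac1 (3.94e-124). The other members had Hdac1 alone. Birc5, which encodes survivin, had 2.6 kb of Hdac1 (1.76e-146), Cdca8, which encodes borealin, 2.2 kb (3.01e-150), and Incenp 1.8 kb (2.99e-138).

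Spindle checkpoint genes delay anaphase until all kinetochores are attached, and 3 of 5 had Hdac2. Ttk, the checkpoint kinase Mps1, had nearly matching islands, 1.6 kb of Hdac1 (4.16e-234) and 1.4 kb of Hdac2 (7.53e-12), with a common edge upstream of the start. Mad2l1, which encodes the Cdc20 inhibitor Mad2, had the narrowest Hdac2 island of the members, 0.6 kb (5.56e-13), inside 2.2 kb of Hdac1 (9.8e-120). It lay 0.18 kb downstream of the start and was the only Hdac2 island at a known start of these genes that did not contain it. Bub3 was the reverse: its Hdac1 island was among the narrowest and weakest (1.2 kb, 1.38e-39) and its Hdac2 island the widest of the members (5.8 kb, 2.69e-06), reaching 4.97 kb upstream. Hdac1 covered 3.2 kb of this Hdac2 island, so further Hdac1 lay under it beyond the 1 kb window. The kinase gene Bub1 (2.4 kb, 6.47e-180) and Bub1b, which encodes BubR1 (1.2 kb, 4.78e-102), had Hdac1 alone.

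Genes for anaphase and sister chromatid separation had Hdac2 at 1 of 4. Cdc20, the activator of the anaphase-promoting complex, had islands of 2.0 kb for each protein (3.74e-101 and 1.19e-06) that shared 1.8 kb. Cdca5, which encodes the cohesin protector sororin, had a lower Hdac1 value than any other member without Hdac2 (5.57e-249, 1.8 kb). Its nearest Hdac2 island was 23.8 kb away. Espl1, the separase gene, had an Hdac1 island of 1.4 kb (2.29e-105) over its start and another of 2.2 kb (2.86e-56) at its 3′ end. Pttg1, which encodes the separase inhibitor securin, had a weak Hdac1 island (1.8 kb, 7.29e-20) that contained its start.

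Among genes for chromosome structure 3 of 4 had Hdac2. Smc4, a condensin ATPase, had the lowest Hdac1 value of all members (1.26e-264, rank 164 of 13283 genes) in an island of 4.4 kb, chr3:69004001-69008400. Inside it lay 2.4 kb of Hdac2 (4.84e-09). Smc2, its partner in condensin, had 1.4 kb (3.98e-191) and 1.0 kb (4.67e-10), which began at the same position. Mki67, the gene of the proliferation marker Ki-67, had 2.6 kb (1.71e-208) and 1.4 kb (1.78e-06). Top2a, the topoisomerase that untangles sister chromatids, had Hdac1 alone (2.0 kb, 2.25e-109), although 9 Hdac2 islands lay within 100 kb of it, the most of any member.

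Central spindle and cytokinesis genes had the broadest Hdac1 islands of the 8 roles, with a median of 3.2 kb, and 3 of 5 had Hdac2. Ect2, the exchange factor that activates RhoA for the contractile ring, had the widest Hdac1 island of the members, 4.6 kb (4.18e-175), and no Hdac2 island within 100 kb. Anln, an actin-binding ring protein, had islands of 4.2 kb (1.88e-139) and 4.0 kb (4.98e-05) that shared 3.4 kb. Kif23, a motor of the centralspindlin complex, had 3.2 kb (1.14e-112) and 2.0 kb (5.08e-12), and Prc1, which bundles midzone microtubules, 2.4 kb (6.46e-126) and 1.2 kb (7.86e-07). Kif20a, a midzone kinesin, had 2.4 kb of Hdac1 (2.12e-191). Like Ect2 it had no Hdac2 island within 100 kb, the nearest lying 117 kb away at Cdc25c, whose gene is 99.7 kb from it.

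**Figure D1:**
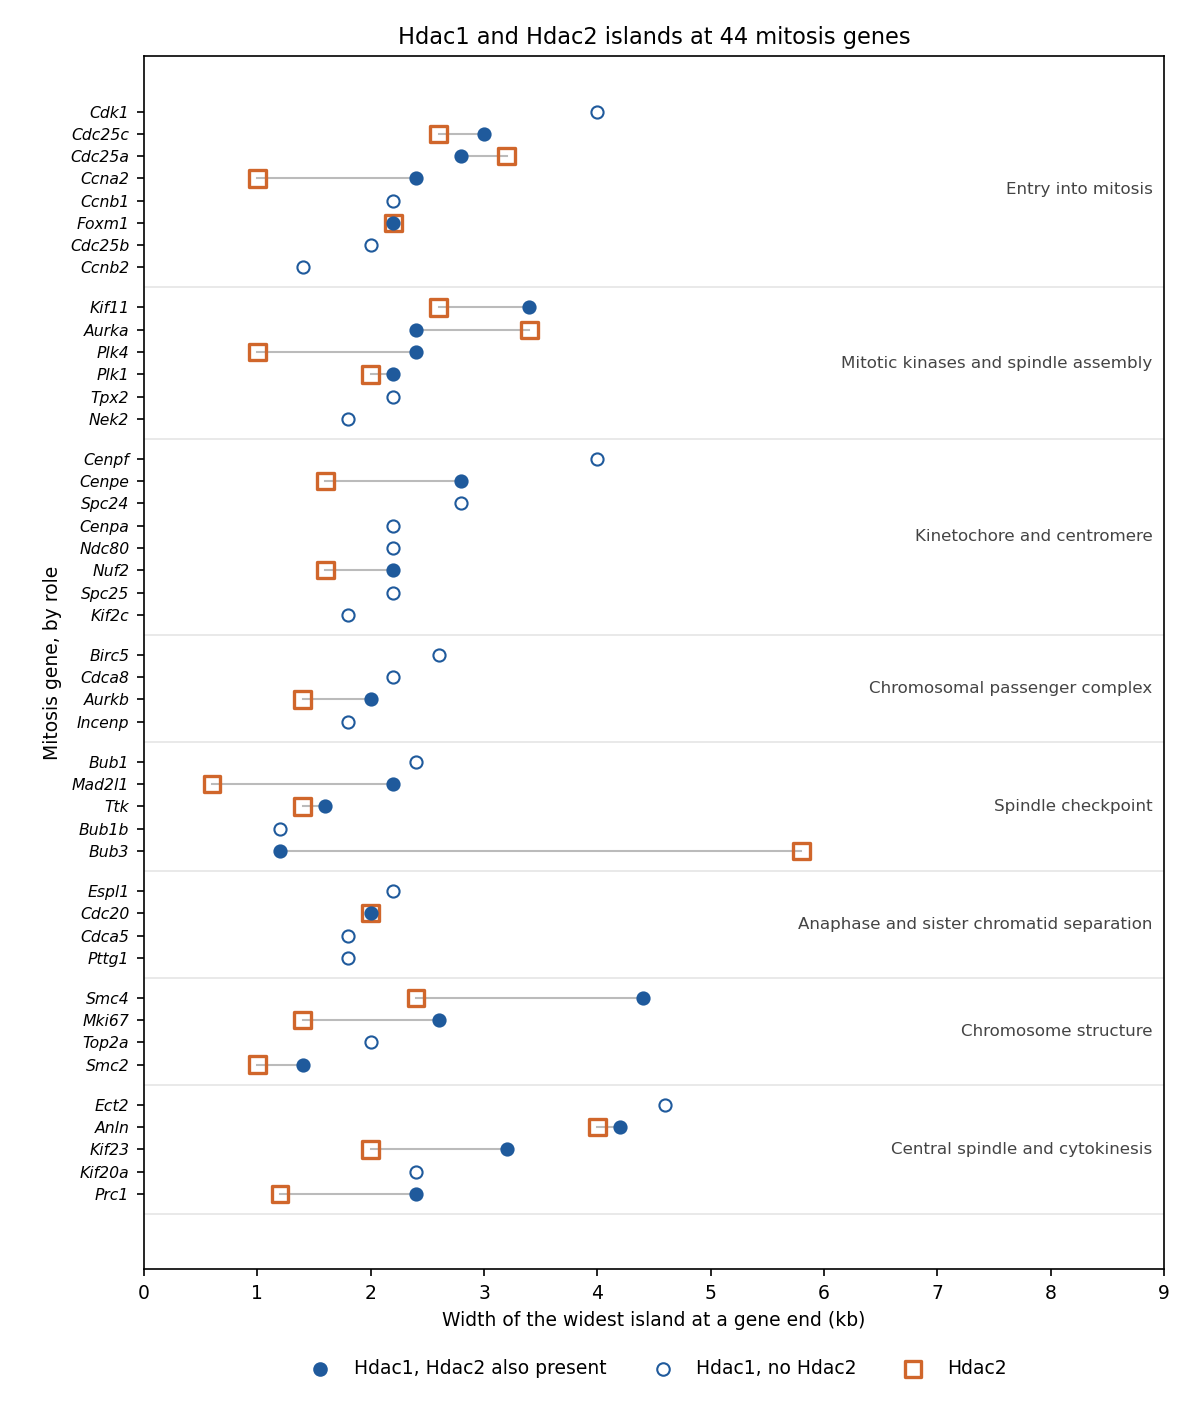
Width in kb of the widest Hdac1 island (circle) and Hdac2 island (square) within 1 kb of an end of each of 44 mitosis genes, in rows by role, with 1 library per antibody. Every gene has a circle, filled where Hdac2 was present; the circles span 1.2 to 4.6 kb and the 21 squares span 0.6 to 5.8 kb, with Bub3 far to the right of the others.

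Of the 35 mitosis genes with a start in the reference, all with Hdac1 at an end, 34 had an Hdac1 island that contained the start. Over all genes with a start the share was 55.3%, and over those with Hdac1 at an end it was 91.1%, so a position over the start is usual for Hdac1 in this list. The exception was Kif2c, whose island lay at the outer end of the annotated gene, 2.63 kb upstream of the listed start. The islands reached a median of 0.884 kb upstream (range 0.21 to 2.72 kb) and 1.3 kb downstream (0.511 to 3.31 kb), and 24 of 34 reached farther into the gene than ahead of it, near the 68.2% of all 9675 genes with Hdac1 over the start. Islands at the 3′ end were seen at Espl1 and, weakly, at Cdc25a (1.6 kb, 2.53e-10). Spc24, for which no start was used, had islands at each end, of 2.8 kb and 2.6 kb (1.01e-19).

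Every Hdac2 island at a member overlapped the member's Hdac1 island, as did 99.5% of Hdac2 islands at all genes with both proteins. Of the 21, 11 lay wholly within Hdac1, beside 51.9% over all such genes. By width 16 were narrower than the widest Hdac1 island, 3 wider (Bub3, Aurka and Cdc25a) and 2 equal (Foxm1 and Cdc20). Over all 6724 genes with both proteins, 67.4% had the narrower island for Hdac2. The Hdac2 islands had a median width of 2.0 kb against 2.4 kb over the 6942 genes with Hdac2. Of the 16 members with Hdac2 and a listed start, 15 had the start within the island, where the share was 27.8% over all genes with a start and 87% over those with Hdac2 at an end. At these 15 it reached a median of 1.09 kb upstream and 0.749 kb downstream, and 6 of 15 reached farther into the gene, beside 59.9% of all 4864 genes with Hdac2 over the start. Island edges fall on steps of the caller's windows, so offsets of this size are near the resolution of the files.

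**Figure D2:**
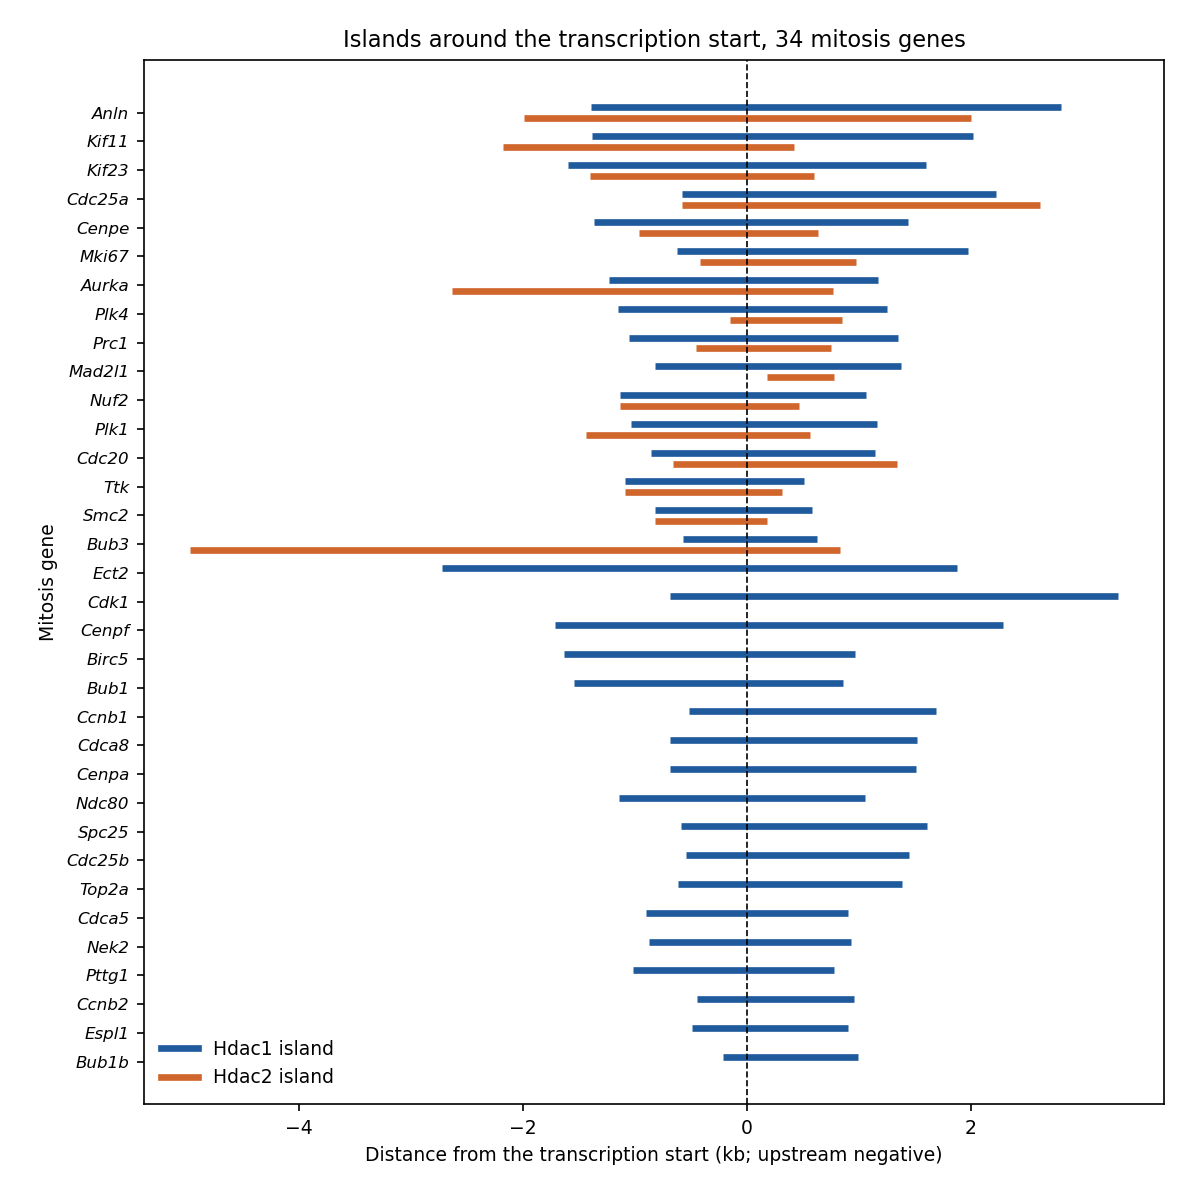
Extent in kb of Hdac1 islands (blue) and Hdac2 islands (orange) around the transcription start (dashed line, upstream negative) of the 34 mitosis genes with an Hdac1 island at a listed start. All 34 blue bars cross the start; of the 16 orange bars, the one at Mad2l1 begins 0.18 kb downstream and the one at Bub3 reaches 4.97 kb upstream.

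Strong Hdac1 islands were common among mitosis genes. When the 13283 genes with Hdac1 were ranked by the value of their strongest island, 27 of the 44 fell in the strongest decile and 11 in the next, so that 38 were in the strongest 2 deciles, which hold 20% of the genes by construction. The remaining 6 were Cenpa, Tpx2, Bub3, Spc25, Pttg1 and Cdc25b. Genes in the strongest 2 deciles had broad islands as a rule, with a median of 3.6 kb over all 2656 of them. The 38 mitosis genes had a median of 2.3 kb. None of the 44 was in the widest decile (4.8 kb and more), and 33 were in the third to seventh.

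**Figure D3:**
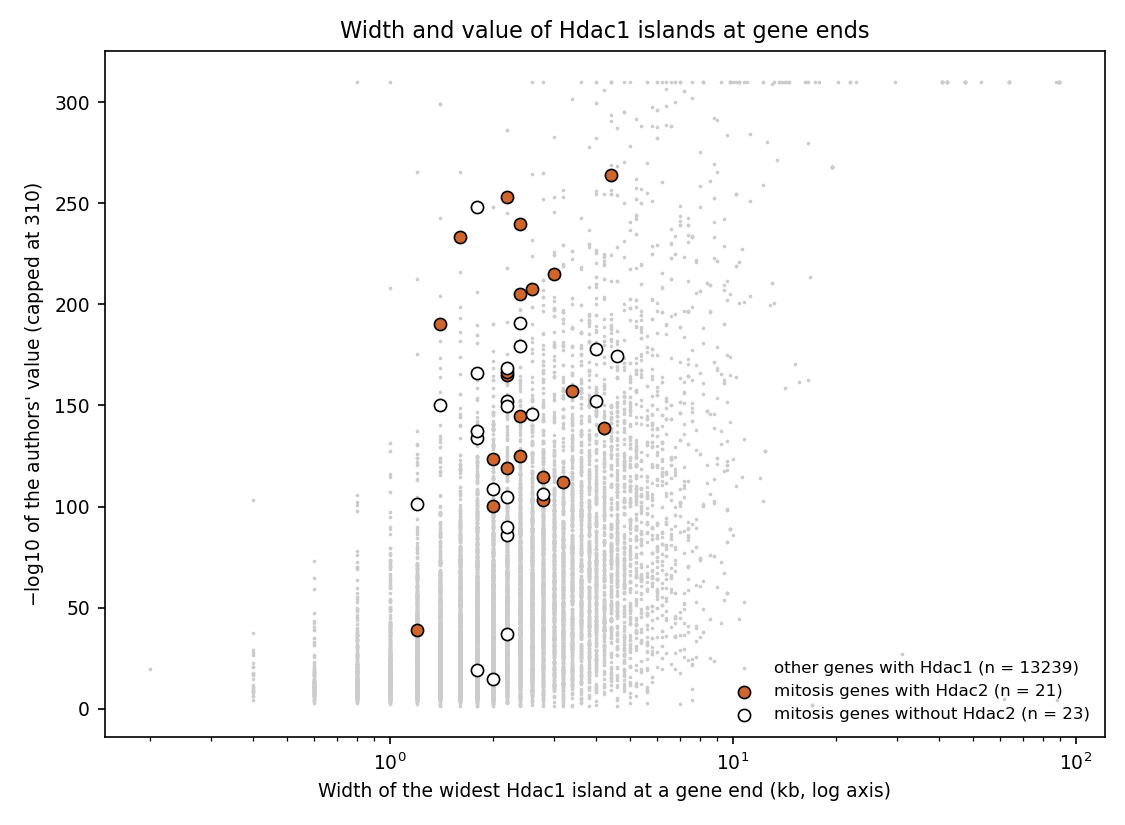
Width in kb (log axis) of the widest Hdac1 island at each gene end against −log10 of the lowest value there, for 13239 other genes (grey) and the 44 mitosis genes (large circles, filled for the 21 with Hdac2). The mitosis genes sit at 1.2 to 4.6 kb and mostly in the upper part of the grey points at their width, and filled and open circles mix.

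Summed over all deciles, the number of mitosis genes with Hdac2 was close to that given by genes with Hdac1 islands of like width. The share of genes with Hdac2 rose with Hdac1 width, from 15.7% in the narrowest decile (up to 1.2 kb) to 84.4% in the widest. Applying the share of each decile to the members in it gave 21.5 genes, beside 21 observed, with single deciles on either side. Compared by value, the number lay below that given by genes with equally strong Hdac1. In the strongest decile 13 of 27 members had Hdac2 (48.1%) against 88.5% of all genes, and in the second 7 of 11 (63.6%) against 81.7%. Applying the shares by value gave 35.4 genes, and applying shares by width and value together gave 31.0, a match chosen after the values were seen. These counts are descriptions of the 2 libraries, without a test, since genes are not replicates.

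**Figure D4:**
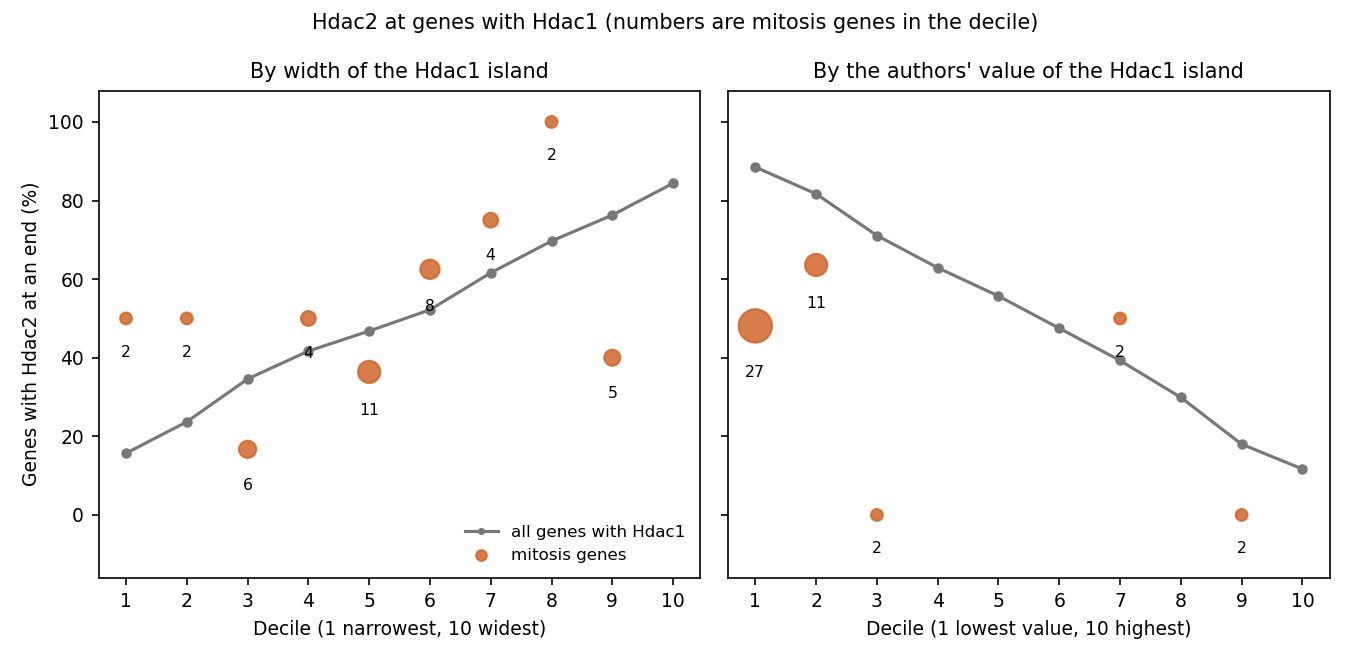
Share in percent of genes with Hdac2 at an end, by decile of Hdac1 island width (left) and of the authors' value (right), for all genes with Hdac1 (grey line) and for mitosis genes (orange, area and number give the members in the decile). On the left the orange points lie on either side of the line; on the right the points for 27 and 11 genes, at 48.1% and 63.6%, lie under it.

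Within the group, members with and without Hdac2 had similar Hdac1 islands. The 21 with Hdac2 had a median of 2.4 kb and 6.54e-158, and the 23 without had 2.2 kb and 1.76e-146. Over all genes the gap was wider, with 3.0 kb and 1.99e-73 where Hdac2 was present and 2.0 kb and 2.92e-32 where it was not. Of the 5 members with Hdac1 islands of 4.0 kb or more, Smc4 and Anln had Hdac2 and Ect2, Cdk1 and Cenpf did not. They are the members in the ninth width decile (3.8 to 4.6 kb), where 76.3% of 1307 genes had Hdac2, so in this decile the members' share of 40% lay below that of like-wide genes. The members' share also lay below in width deciles 3 and 5, and above in deciles 1, 2, 4, 6, 7 and 8. By value the 21 Hdac2 islands were spread over the deciles of genes with Hdac2, which hold near-equal numbers of genes by construction. None was in the strongest decile, 2 were in the second and 3 in the third. The first 5 deciles held 9 and the last 5 held 12, near an even split. Keeping only the upper 50% of each list by value left Hdac2 at 9 members, Foxm1, Plk1, Plk4, Aurkb, Ttk, Mad2l1, Smc2, Smc4 and Kif23, and Hdac1 at 43, where 15.8% and 52.6% of all genes kept them.

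The gene bodies added no gene to those with islands at an end. An island at an end that reaches 1 bp or more into the gene is counted again in the body. Every island at an end is also counted within 100 kb, so these counts are not separate from those at the ends. Across the body Hdac1 was found at 44 members (65.5% of all genes) and Hdac2 at 21 (38.4%), the same 21 genes that had it at an end. By island midpoint the counts were 37 for Hdac1, beside 53.6% of all genes, and 11 for Hdac2, beside 29.8%. Within 100 kb Hdac1 was found at 44 members and Hdac2 at 42, beside 85.4% and 85.5% of all genes. The median number of Hdac1 islands there was 7 (range 1 to 18) against 5 over all genes, and of Hdac2 islands 3 (range 0 to 9) against 2. For the 23 members without Hdac2 at an end, the nearest Hdac2 island was a median of 30.4 kb from the gene, from 2.83 kb at Kif2c to 117 kb at Kif20a. Over all 6559 genes that had Hdac1 alone at an end the median was 26.4 kb.

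Some islands cannot be assigned to the mitosis gene alone. At 11 of the 44 genes an Hdac1 island also lay within 1 kb of an end of another protein-coding gene, beside 32.3% of all genes with Hdac1. These were Aurka with Cstf1, Foxm1 with Rhno1, Smc4 with Ift80, Ccna2 with Bbs7, Cdca5 with Zfpl1, Kif20a with Brd8, Ndc80 with Spdya, Prc1 with Rccd1, Anln with 9530077C05Rik, Cdca8 with 9930104L06Rik, and the 3′ island of Espl1 with Pfdn5. Of these genes 6 had Hdac2 and 5 did not, near the share of 55.5% over all 4294 genes with such an Hdac1 island.

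Other genes of mitosis were counted in the same way. Of 137 genes in 7 further lists, 126 had Hdac1 at an end and 68 had Hdac2. Hdac1 islands of these genes had a median of 2.4 kb and 4.38e-99, and 57.1% of the genes with Hdac1 were in the strongest 2 deciles by value. Shares by width gave 64.4 genes with Hdac2 and shares by value 91.9. In each of the 7 lists the number with Hdac2 lay below that given by value, while by width 4 lists lay above and 3 below. Spindle and cytokinesis genes such as Kif4, Kif14 and Aspm had Hdac1 at 27 of 27 and Hdac2 at 10, beside 12.4 by width and 20.8 by value. Other kinetochore and centromere genes had 33 and 19 of 35, beside 16.7 by width, with no Hdac1 at the shugoshin genes Sgo1 and Sgo2a. The anaphase-promoting complex and its regulators had 17 and 9 of 18 (9.18 by width, Hdac1 absent at Anapc15). Cohesin had 11 and 6 of 13 (6.24 by width, absent at Nipbl and Stag1), and the remaining condensin subunits 6 and 4 of 6 (3.51 by width). Other mitotic kinases and phosphatases had 17 and 10 of 22 (8.89 by width), without Hdac1 at Aurkc, Ccnb3, Cdc14a, Nek6 and Ppp1cc. Genes of DREAM, Myb-MuvB and NF-Y, the regulators of mitosis promoters, had 15 and 10 of 16 (7.52 by width), without Hdac1 at Nfyc. Mybl2, Lin9, Lin54 and Rbl1 were among those with both, and Rbl2, E2f4, Lin37, Lin52 and Nfyb had Hdac1 alone.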

How the data were processed

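Islands of 2 ChIP-seq libraries, 1 per antibody, were analysed. Per the labels' protocols, each library came from 500 pg of DNA and 12 PCR cycles plus further ones, so reads need not be independent molecules. Duplicate reads were not examined here. The submitters' processing notes list SICER, bedtools 2.17, SAMtools 1.3.1, BWA 0.7.5a and FastQC, and name mm10. Island names in the files carry the name of SICER, which joins enriched windows into islands. Its settings, the background library and the depth were not stated there. The authors deposited for each island a position and a p-value or q-value, and nothing states which. Starts were converted to 1-based positions.

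Gene spans and promoter windows came from RefSeq tables of GRCm38.p6, the assembly of mm10. Where several starts were listed, the outermost was used for windows and distances. The alternative with starts only took an island near any listed start. With several islands at the ends of 1 gene, width is that of the widest and value that of the strongest. Deciles were taken over all genes with Hdac1. No chance test was made. Members and lists were chosen with earlier results of these data known. All members are named, with other mitosis genes named where Hdac1 was absent; the few others named were chosen after their values were seen. Alternatives were windows of 500 bp and 5 kb, the upper 50% of islands by value, islands merged within 1 kb, starts only, other overlaps and other matches. Overlap calls were tested on simulated data and against bedtools 2.31.1. Calculations ran in Python 3.11.15 with pandas 2.3.3, numpy 2.4.6 and scipy 1.17.1, and plots in matplotlib 3.10.9.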

Additional observations from a re-analysis of the deposited data

How the results depend on the processing

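Of 40 alternatives over 11 results, 34 gave a value within 1.5 times the reported one. The 6 that moved were these. With the upper 50% of islands by value, the members with Hdac2, and those with both proteins, fell from 21 to 9, the number given by shares at like width from 21.5 to 10.5, and the other mitosis genes with Hdac2 from 68 to 35. Matching on value in place of width raised the number given by shares to 35.4. Counting island midpoints in the gene body lowered Hdac2 from 21 to 11 members. By construction the upper 50% holds fewer islands, and the cause of the other 2 shifts was not tested. For matches, the limit of 1.5 times compares numbers given by shares, not their gap to the observed count. Matching on width and value together gave 31.0 beside 21 observed, yet stayed within the limit. The upper 50% gave 10.5 beside 9 observed, yet counted as moved. With starts only, 34 of 35 members had Hdac1 and 16 had Hdac2. No paired analysis was possible because each antibody has 1 library. Without depth or replicates, an absent Hdac2 island means that none was called, not that Hdac2 was absent.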

Other observations

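Outside the mitosis lists, genes with strong Hdac1 islands and both CHR and CCAAT letters in the promoter window were mostly occupied by Hdac2. Of 112 such genes in the strongest 2 deciles of Hdac1 value, 92 had an Hdac2 island at an end (82.1%), close to the 86% of 1946 genes in those deciles without both motifs. Their Hdac1 islands had a median of 3.8 kb and 3.6 kb. Among members in the same deciles, 9 of 18 with both motifs and 6 of 12 without had Hdac2, with median Hdac1 widths of 2.3 kb and 2.2 kb. No test was made of these shares.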
